A study of Bos taurus with 15 samples.

Results

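Interferons are secreted signals that bind receptors at the cell surface, activate the kinases JAK1 and TYK2 and, through transcription factors that include STAT2 and IRF9, switch on interferon-stimulated genes whose products restrict viruses and raise antigen display. In cattle and other ruminants the trophectoderm (the blastocyst's outer layer of cells) itself secretes interferon tau, the signal by which the mother recognises the pregnancy, and the endometrium answers with many of the same stimulated genes. The genes described here are 42 symbols of interferon signalling and interferon-stimulated genes, given as a list and not chosen by a cut on measured values. The count table held 38 of them, among 17259 genes in all. The symbols DDX58, OAS1X, BST2 and SAMD9 were not analysed here (DDX58 is an older name of RIGI, which was).

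Poly(A) RNA of Bos taurus blastocysts at day 7 was sequenced in 3 groups of 5 libraries. The first in vitro group came from zygotes whose cumulus cells, the follicular cells around the egg, were taken off by an automatic procedure, and the second from zygotes denuded by hand; both were then cultured in SOF medium to day 7. The third group was collected in vivo; the labels give no breed, donor or age. The labels' design counts 5 blastocysts per group, as many as libraries, but does not state outright that a library is 1 blastocyst. The labels do not state separate cultures or donors either, and the p-values below therefore reflect only how much these libraries varied, part of which may be technical.

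Library totals lay between 17963944 and 41974214 estimated counts. The libraries are called automatic, manual and in vivo libraries here, numbered as in the labels. In 5 libraries (automatic 2 and 4, manual 2, in vivo 2 and 4) only 6977 to 8547 genes had 10 or more counts, against 9900 to 12611 genes in the other 10. The summed level of all 10 of 10 trophectoderm markers was 4395 to 14045 CPM in the automatic libraries (CPM, counts per 1000000 counts of the TMM-scaled library size). It was 8168 to 34451 CPM in the manual and 12773 to 31597 CPM in the in vivo libraries. In automatic 4, the lowest, the keratins KRT8 and KRT18 gave 2123 and 1434 of 4395 CPM. Each library had 10 or more counts for 8 to 10 of the 10 markers, but single markers were low. ELF5 was at 0 in automatic 1, 2 and 5, manual 3 and 5, and in vivo 5. It exceeded 1 CPM only in in vivo 1 and in vivo 4. In automatic 4 CDX2 was at 0 and TEAD4 at 0.664 CPM. In such bulk libraries, fewer cells of a type and less RNA per cell cannot be told apart. Values are given for libraries 1 to 5 of a group in that order. A count of 0 allows, at these depths, a level of up to 0.0613 to 0.229 CPM (3 counts; counting error only).

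No member was called as different in any comparison (edgeR quasi-likelihood F test over 11578 genes, Benjamini-Hochberg adjusted p under 0.05). Only 25 of the 38 members could be tested, since the other 13 had too few counts in most libraries to pass the filter on low counts. Automatic against manual denudation gave 0 of 25 members called, where 0% of all genes tested were called, and the smallest adjusted p among members in edgeR's quasi-likelihood test was 0.9999. The mean of both in vitro groups against in vivo gave 0 members, where 0.0173% of genes were called, with a smallest member adjusted p of 0.703. For automatic denudation against in vivo it was again 0 members with 0.0173% of genes called, and for manual denudation against in vivo 0 members with 0% of genes called. At an unadjusted p under 0.05, 1 member was lower after automatic than after manual denudation (background 1.48% of all genes, in either direction), and 1 was lower in vitro than in vivo (background 6.13%). The counts were 0 members for automatic denudation against in vivo (background 5.36%) and 3 members, all higher, for manual denudation against in vivo (background 3.39%).

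Detection was uneven among the members. Only 4 members (JAK1, IRF3, IFI35 and B2M) had 10 or more counts in all 15 libraries, 16 of the 38 had them in 5 libraries or fewer, and IFIT2 had no count anywhere. The shares of all genes at these limits are not given here. The median biological coefficient of variation in edgeR, a measure of spread between libraries of a group, was 1.61 over the 25 tested members, against 1.25 over all genes tested. It was lowest for B2M (0.685) and highest for IFIH1 (2.89). By its 95% interval, the change was within 4-fold either way for 2 of 25 members between automatic and manual denudation (23.98% of all genes) and for 3 of 25 between in vitro and in vivo (26.8% of all genes).

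**Figure D1:**
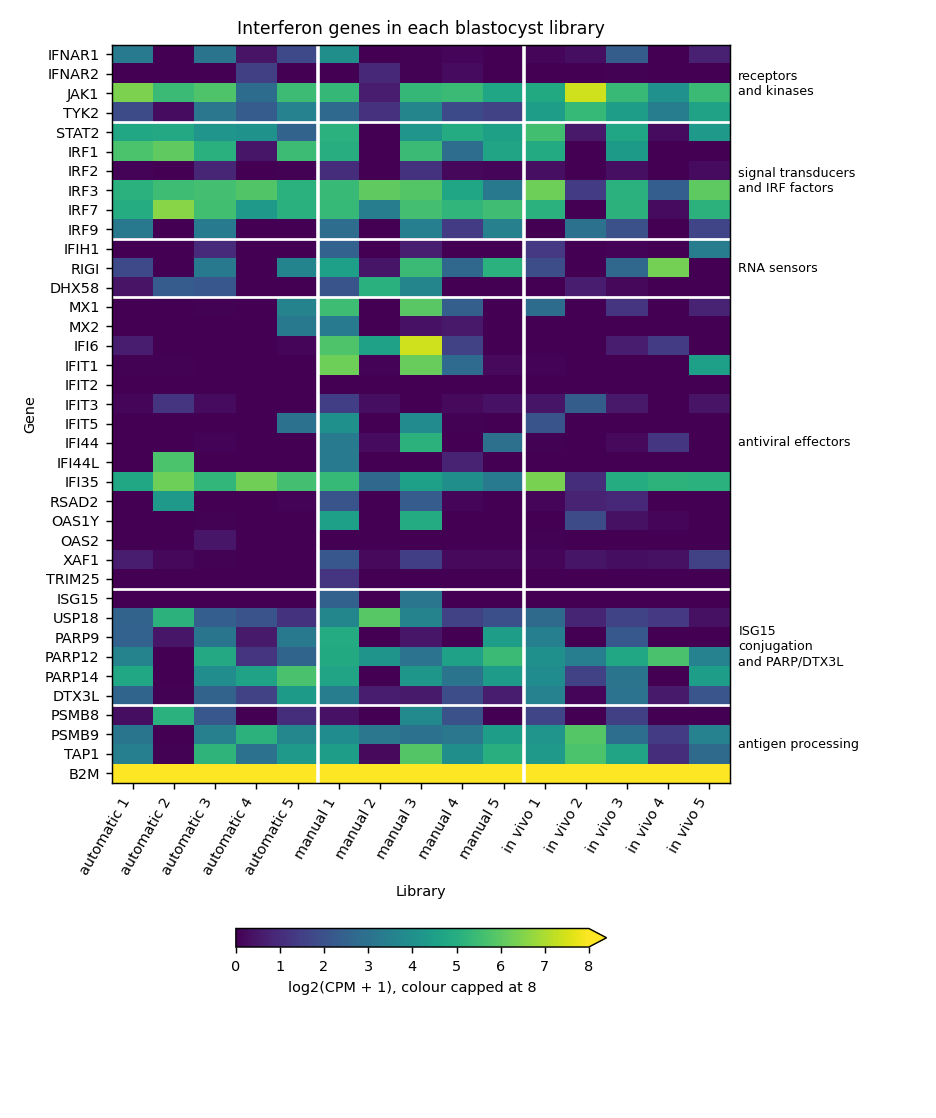
Level of each of the 38 members (rows, grouped by role) in each of the 15 libraries (columns), as log2(CPM + 1) with the colour capped at 8. Kinases, IRF factors and antigen processing genes are spread over the groups, while most antiviral effectors and ISG15 show colour in manual 1 and manual 3 and in few other libraries.

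IFNAR2 was barely detected, while IFNAR1 and the kinases were found in every group. IFNAR1, a chain of the type I interferon receptor, had 10 or more counts in 6 libraries and reached at most 14.8 CPM, and IFNAR2, its partner chain, had them in 2 libraries and reached at most 1.88 CPM. JAK1 stood at 83.8, 43.1, 54.7, 6.08 and 43.3 CPM in the automatic libraries, 39.5, 0.562, 39.4, 42.7 and 25.4 CPM in the manual libraries, and 27.9, 172, 42.1, 15.6 and 43.1 CPM in vivo. The groups overlap over most of their range, and manual 2 and in vivo 2 hold the extremes. Its log2 fold change was 0.65 ± 0.90 (SE) for automatic against manual and -0.70 ± 0.76 for in vitro against in vivo, and the second turned positive (0.21) without in vivo 2.

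TYK2, the kinase bound to IFNAR1, was the member with the smallest p between in vitro and in vivo blastocysts. It stood at 2.63, 0.195, 7.98, 4.04 and 10.6 CPM in the automatic libraries, 5.71, 1.22, 11.3, 2.45 and 2.0 CPM in the manual libraries, and 21.4, 39.8, 21.0, 9.38 and 23.5 CPM in vivo. In vivo, 4 of 5 libraries lie above every in vitro library, and in vivo 4, at 9.38 CPM, lies within the in vitro range. The mean was 5.09 ± 4.19 CPM over the automatic, 4.55 ± 4.17 CPM over the manual and 23.0 ± 10.9 CPM over the in vivo libraries (SD, n = 5 each). In vitro against in vivo, the log2 fold change was -2.26 ± 0.91, with an unadjusted p of 0.0227 and an adjusted p of 0.703 by edgeR's quasi-likelihood test, so the difference does not pass over all genes. It kept its sign without any 1 library (-2.59 to -1.96), and for automatic and for manual denudation alone against in vivo it was -2.17 ± 1.14 and -2.34 ± 1.15.

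The libraries of the groups overlapped for every transcription factor. All 5 tested factors (STAT2, IRF1, IRF3, IRF7 and IRF9) had a fitted mean higher in vitro than in vivo, with a median log2 fold change of 0.84 and no unadjusted p under 0.05. IRF3, the factor that viral RNA sensing activates, stood at 33.5, 44.4, 48.1, 55.9 and 33.4 CPM in the automatic libraries, 40.6, 65.7, 57.3, 25.8 and 8.37 CPM in the manual libraries, and 75.0, 1.61, 33.8, 4.30 and 63.3 CPM in vivo. IRF7, which amplifies the response and is itself interferon-stimulated, stood at 30.1, 95.1, 46.4, 18.6 and 32.7 CPM in the automatic libraries, 39.9, 9.28, 47.3, 37.5 and 46.1 CPM in the manual libraries, and 33.3, 0, 34.2, 0.183 and 33.99 CPM in vivo. For both genes the 2 lowest libraries were in vivo 2 and in vivo 4, which are among the libraries with few detected genes. IRF7 differed by a log2 fold change of 0.31 ± 1.16 for automatic against manual and 0.98 ± 1.05 for in vitro against in vivo. IRF3 differed by 0.12 ± 0.86 and 0.21 ± 0.75 in the same comparisons, and the second was negative (-0.69) without the 5 libraries of low detection. STAT2 was seen with 10 or more counts in 12 libraries, IRF1 in 10 and IRF9 in 9, and IRF2, a repressor of stimulated genes, in 5, never above 1.26 CPM.

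The RNA sensors were patchy. RIGI, which recognises viral RNA in the cytoplasm, stood at 2.38, 0, 8.47, 0 and 11.2 CPM in the automatic libraries, 21.9, 0.375, 43.0, 5.56 and 33.3 CPM in the manual libraries, and 2.72, 0, 5.32, 80.0 and 0 CPM in vivo. Its highest library was in vivo 4, and 3 manual libraries lay above every automatic library. The log2 fold change was -2.24 ± 1.96 for automatic against manual and -0.88 ± 1.58 for in vitro against in vivo, the second turning to 2.23 without in vivo 4. DHX58, a regulator of RIGI and IFIH1 signalling, stood at 0.344, 3.97, 3.53, 0 and 0 CPM in the automatic libraries, 3.19, 33.1, 11.6, 0 and 0 CPM in the manual libraries, and 0, 0.536, 0.123, 0 and 0 CPM in vivo. It was thus below 1 CPM in all 5 in vivo libraries and at 0 in 2 libraries of each in vitro group. Its log2 fold change was 6.21 ± 2.64 for manual denudation against in vivo (unadjusted p = 0.0297, adjusted p = 0.9997, edgeR's quasi-likelihood test) and -2.61 ± 2.22 for automatic against manual. IFIH1, the other sensor, had 10 or more counts in 5 libraries and peaked at 9.17 CPM in in vivo 5.

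The antiviral effectors, the products that act on the virus itself, were low or at 0 in most libraries and mostly highest in manual 1 and manual 3. Of the 18 effectors listed, 15 were in the table and 14 had at least 10 counts in some library. In manual 1, 13 of these 14 had 10 or more counts and in manual 3, 10 of them, against 1 to 7 in each of the other 13 libraries (3, 4, 2, 1 and 4 after automatic denudation, 2, 6 and 2 in manual 2, 4 and 5, and 4, 3, 7, 3 and 4 in vivo). The summed level of the 13 effectors other than IFI35 was 1.22, 72.1, 0.701, 0 and 26.7 CPM in the automatic libraries, 249, 23.5, 384, 13.95 and 7.42 CPM in the manual libraries, and 9.88, 7.73, 3.85, 3.48 and 24.7 CPM in vivo. Manual 1 and manual 3 therefore stood above every other library, automatic 2 came next, and the other 3 manual libraries lay within the range of the automatic and in vivo ones.

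MX1, a GTPase that blocks viral replication and a standard readout of interferon tau in cattle, stood at 0, 0, 0.0242, 0 and 11.0 CPM in the automatic libraries, 45.1, 0, 60.4, 4.37 and 0 CPM in the manual libraries, and 6.03, 0, 1.31, 0 and 0.697 CPM in vivo. Manual 1 and manual 3 exceeded all others, but manual 2 and manual 5 were at 0, so the groups overlap. The mean was 2.21 ± 4.92 CPM over the automatic, 21.96 ± 28.6 CPM over the manual and 1.61 ± 2.53 CPM over the in vivo libraries (SD, n = 5 each). Its log2 fold change was -3.31 ± 2.44 for automatic against manual. Leaving out 1 library moved it between -10.86 (without automatic 5, which held nearly all of the automatic signal) and -2.48 (without manual 3), and it was 0.61 without manual 1 and manual 3, a setting chosen after the values were seen. For in vitro against in vivo it was 2.11 ± 2.16, and -1.69 without automatic 5.

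IFI6, a small mitochondrial and endoplasmic reticulum protein induced by type I interferon, was the member with the smallest p between the denudation methods. It stood at 0.563, 0, 0, 0 and 0.0807 CPM in the automatic libraries, 54.8, 22.9, 172, 1.98 and 0 CPM in the manual libraries, and 0, 0, 0.532, 1.69 and 0 CPM in vivo. Here 4 of 5 manual libraries lie above every automatic and every in vivo library, and manual 5 is at 0. The log2 fold change was -8.54 ± 2.50 for automatic against manual (unadjusted p = 0.00293, adjusted p = 0.9999 by edgeR's quasi-likelihood test) and 6.81 ± 2.31 for manual denudation against in vivo (unadjusted p = 0.00847, adjusted p = 0.9997 by the same test). It was called by DESeq2 between automatic and manual denudation, with a log2 fold change of -8.66 and an adjusted p of 0.0183, and by none of the other settings.

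The remaining effectors of this pattern failed the filter and have no fold change here. IFIT1, which binds viral RNA lacking the host cap, stood at 75.0 CPM in manual 1, 69.6 CPM in manual 3 and 6.0 CPM in manual 4, at no more than 0.039 CPM in any automatic library and at 21.7 CPM in in vivo 5, the only in vivo library above 0.0453 CPM. IFIT5, a relative of IFIT1, stood at 7.13 CPM in automatic 5, at 15.2 and 13.5 CPM in manual 1 and manual 3, and at 3.19 CPM in in vivo 1, with no more than 0.0314 CPM elsewhere. OAS1Y, an oligoadenylate synthetase that arms the degradation of viral RNA, stood at 21.9 CPM in manual 1, 29.0 CPM in manual 3 and 0 CPM in the other 3 manual libraries, with at most 0.0242 CPM after automatic denudation and 2.53 CPM in vivo. These genes thus share their 2 highest libraries with MX1 and IFI6 while differing in which further libraries hold a trace.

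IFI44, whose human counterpart is induced by type I interferon, was at most 0.0484 CPM after automatic denudation, stood at 8.97, 0.187, 34.1, 0 and 6.79 CPM after manual denudation, and was at most 1.42 CPM in vivo. Its neighbour in the genome and close relative IFI44L behaved differently, with 51.7 CPM in automatic 2, 8.88 CPM in manual 1, 0.691 CPM in manual 4 and 0 in the other 12 libraries. RSAD2, an enzyme that makes a chain-terminating nucleotide, stood at 0, 18.9, 0, 0 and 0.0538 CPM in the automatic libraries, 3.23, 0, 4.05, 0.0943 and 0 CPM in the manual libraries, and 0.0906, 0.689, 0.880, 0 and 0 CPM in vivo. Automatic 2 thus holds the highest value of both IFI44L and RSAD2 while MX1, IFI6 and OAS1Y are at 0 there. IFIT5, RSAD2 and ISG15 were chosen for full values after their levels were seen.

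**Figure D2:**
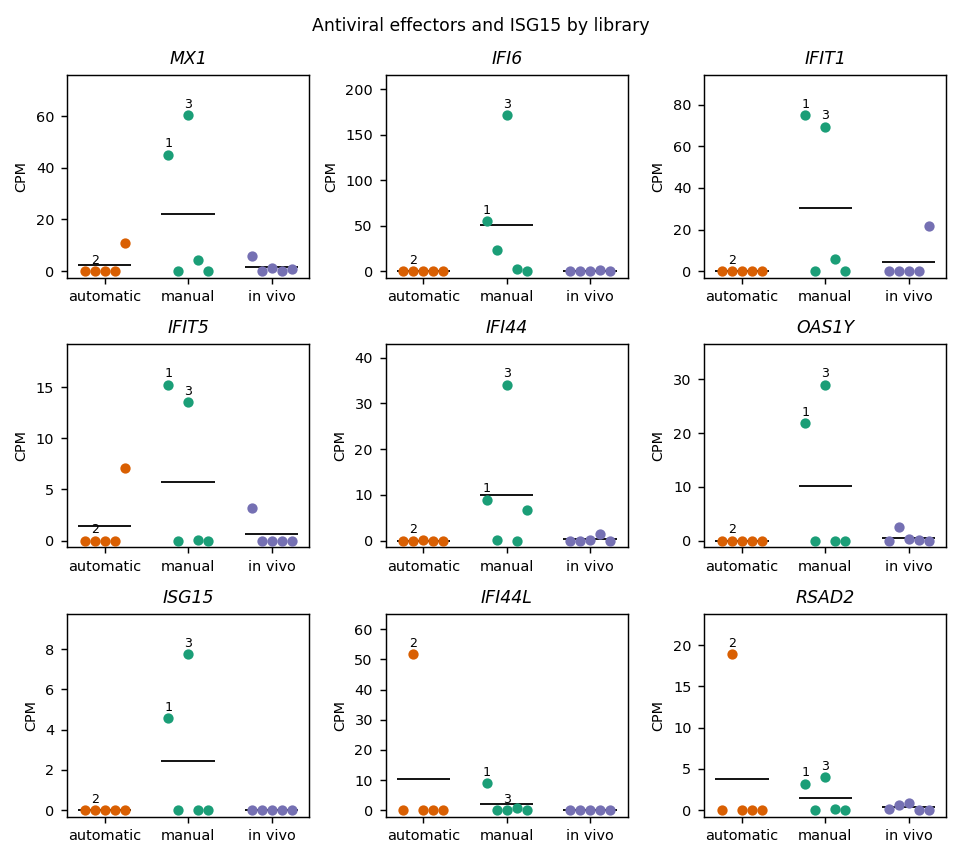
CPM of 8 antiviral effectors and ISG15 in each automatic, manual and in vivo library (points), with the group mean as a bar; the numbers mark automatic 2, manual 1 and manual 3. In 7 of the 9 panels manual 1 and manual 3 are the 2 highest points, and in the panels of IFI44L and RSAD2 the highest point is automatic 2. The detected effectors not drawn are MX2, XAF1, IFIT3, OAS2, TRIM25 and IFI35. None of these has manual 1 and manual 3 as its 2 highest libraries.

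Other effectors were near 0 or were expressed everywhere. MX2, a relative of MX1, was above 1 CPM only in automatic 5 (8.42 CPM) and manual 1 (8.82 CPM). OAS2 peaked at 0.411 CPM in automatic 3, TRIM25, a ligase that activates RIGI, at 1.32 CPM in manual 1, XAF1 at 3.53 CPM in manual 1, and IFIT3 at 4.13 CPM in in vivo 2. IFI35, in contrast, stood at 26.2, 74.4, 38.7, 76.7 and 47.6 CPM in the automatic libraries, 40.3, 5.48, 21.9, 14.8 and 8.53 CPM in the manual libraries, and 82.4, 1.07, 29.8, 35.2 and 33.8 CPM in vivo. Every automatic library lay above manual 2 to 5, manual 1 lay among the automatic ones, and the in vivo libraries spanned both. The log2 fold change of 1.53 ± 0.87 for automatic against manual had an unadjusted p of 0.0927 and an adjusted p of 0.9999 by edgeR's quasi-likelihood test.

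ISG15, a ubiquitin-like protein and the classical marker of interferon tau in the cow, had 149 counts (4.58 CPM) in manual 1, 245 counts (7.75 CPM) in manual 3 and no count in the other 13 libraries. The protease that removes it, USP18, also dampens the receptor, and it followed another order. USP18 stood at 4.81, 34.4, 4.26, 3.15 and 1.27 CPM in the automatic libraries, 11.9, 59.7, 11.0, 1.98 and 2.90 CPM in the manual libraries, and 5.85, 0.765, 2.11, 1.51 and 0.293 CPM in vivo. Its highest libraries were manual 2 and automatic 2, and the in vivo libraries overlap the lower in vitro ones. The log2 fold change was 3.05 ± 1.37 for manual denudation against in vivo (unadjusted p = 0.0379, adjusted p = 0.9997, edgeR's quasi-likelihood test), 2.62 ± 1.26 for in vitro against in vivo (unadjusted p = 0.0512) and -0.87 ± 1.27 for automatic against manual.

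PARP9, DTX3L and PARP14 are neighbours in the genome, and PARP9 and DTX3L form a complex that modifies histones and viral proteins in human cells. PARP9 stood at 4.75, 0.390, 7.67, 0.498 and 8.45 CPM in the automatic libraries, 29.6, 0, 0.411, 0 and 21.1 CPM in the manual libraries, and 10.1, 0, 3.64, 0 and 0 CPM in vivo. PARP14 stood at 26.3, 0, 14.2, 23.4 and 51.1 CPM in the automatic libraries, 24.4, 0, 18.02, 7.48 and 20.1 CPM in the manual libraries, and 13.8, 1.99, 7.53, 0 and 21.0 CPM in vivo. In both genes manual 1 and manual 5 were the highest manual libraries, so manual 3 did not lead here as it did among the effectors. PARP12, an antiviral relative, stood at 11.0, 0, 27.2, 1.33 and 4.98 CPM in the automatic libraries, 27.8, 16.6, 7.33, 23.0 and 43.0 CPM in the manual libraries, and 15.2, 9.64, 26.2, 50.6 and 10.6 CPM in vivo. The log2 fold changes for automatic against manual were -1.23 ± 2.09 for PARP9, 0.72 ± 1.60 for PARP14 and -1.40 ± 1.21 for PARP12, and DTX3L peaked at 19.4 CPM in automatic 5 with 1.18 ± 1.55. For in vitro against in vivo they were 1.28 ± 1.90 for PARP9, 1.02 ± 1.44 for PARP14 and -0.63 ± 1.01 for PARP12.

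The antigen processing members were spread over all groups. PSMB8, an immunoproteasome subunit, stood at 0.219, 33.4, 3.46, 0 and 1.08 CPM in the automatic libraries, 0.307, 0, 12.8, 2.99 and 0 CPM in the manual libraries, and 2.20, 0, 1.86, 0 and 0 CPM in vivo. TAP1, which pumps peptides to the class I molecules, stood at 10.03, 0.039, 35.8, 7.02 and 19.1 CPM in the automatic libraries, 20.9, 0.141, 56.9, 14.7 and 32.2 CPM in the manual libraries, and 18.7, 51.8, 24.6, 1.05 and 5.79 CPM in vivo. Manual 3 was the highest library for TAP1 and the highest manual library for PSMB8, and automatic 2 the highest for PSMB8. PSMB8 and TAP1 lie side by side in the genome together with PSMB9, another immunoproteasome subunit, which had 10 or more counts in 14 libraries and peaked at 58.0 CPM in in vivo 2. B2M, the invariant light chain of class I molecules, stood at 539, 977, 349, 822 and 373 CPM in the automatic libraries, 384, 1538, 411, 730 and 649 CPM in the manual libraries, and 464, 3792, 259, 556 and 835 CPM in vivo. Its groups overlapped apart from in vivo 2, the highest library, and among the tested members it had the smallest SE between automatic and manual denudation, with a log2 fold change of -0.28 ± 0.60. The other fold changes were 1.24 ± 2.18 for PSMB8 and -0.79 ± 1.31 for TAP1 in that comparison, and 2.59 ± 2.13 for PSMB8, -0.10 ± 1.12 for TAP1 and -0.81 ± 0.50 for B2M in vitro against in vivo. Without in vivo 2 the last turned to 0.36, and without automatic 2 PSMB8 turned to -1.45 for automatic against manual.

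**Figure D3:**
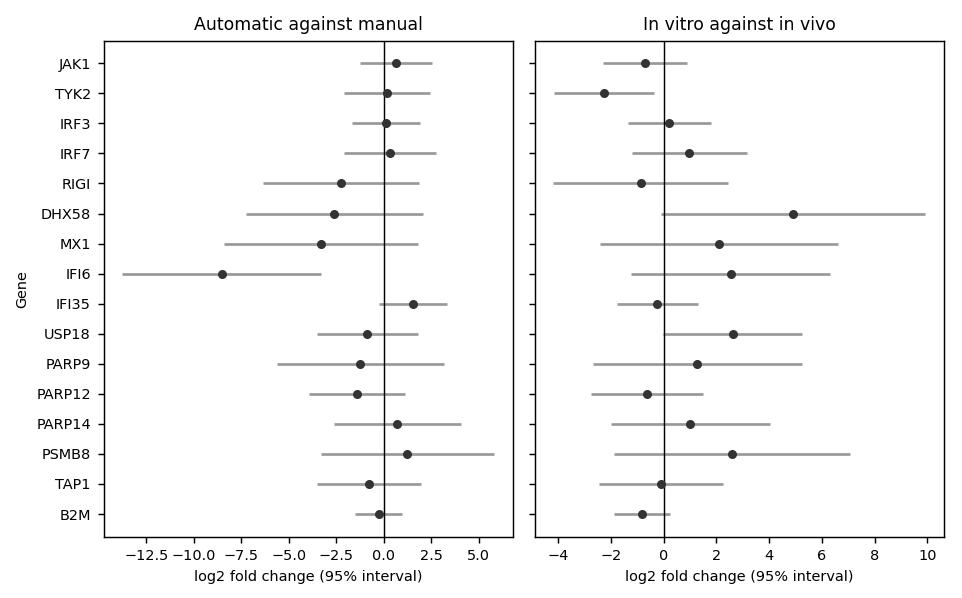
Log2 fold change of the 16 named and tested members for automatic against manual denudation (left) and in vitro against in vivo (right), with the 95% interval of the edgeR fit; the axes differ in scale. The interval leaves out 0 for IFI6 on the left and for TYK2 on the right, before any adjustment over genes.

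Over all 25 tested members, the fitted means split between both directions in every comparison. For automatic against manual denudation 12 tested members had a higher and 13 a lower fitted mean, with a median log2 fold change of -0.17, against -0.05 over all genes tested. For in vitro against in vivo it was 14 higher and 11 lower with a median of 0.21, against -0.04 over all genes. For automatic denudation against in vivo it was 14 and 11 with 0.45, against -0.06, and for manual denudation against in vivo 17 and 8 with 0.29, against -0.02. These comparisons share libraries, so their counts do not add to one another. No member's automatic and manual libraries failed to overlap (0 of 25, where 0.665% of all genes tested did not overlap), and likewise none between in vitro and in vivo (0 of 25, where 0.475% of genes did not overlap).

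Detection of the members differed from library to library. Among the 37 members with 10 or more counts in some library, 35 had them in manual 1 and 31 in manual 3, against 21, 14, 23, 14 and 21 after automatic denudation, 13, 22 and 18 in manual 2, 4 and 5, and 22, 13, 26, 13 and 18 in vivo. Manual 1 and manual 3 were not the libraries with the most genes of any kind: in vivo 3 and automatic 3 had more genes with 10 or more counts. Each of manual 1 and manual 3 was the highest library for 7 of 37 members (18.9%), against 3.55% and 8.39% of all genes with such counts. The pair held the 2 highest levels of 8 of 37 members (IRF2, MX1, IFI6, IFIT1, IFIT5, IFI44, OAS1Y and ISG15; 21.6%), and of 194 of 14330 genes (1.35%). The next pair in number of members, automatic 2 and manual 3, held the highest levels of 3 members (IRF7, RSAD2 and PSMB8). These counts describe the libraries after their values were seen, and no test goes with them. The members of the IFIT, OAS1, MX and IFI44 families resemble one another in sequence, so that estimated counts can be divided among them, and they are not independent of one another.

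**Figure D4:**
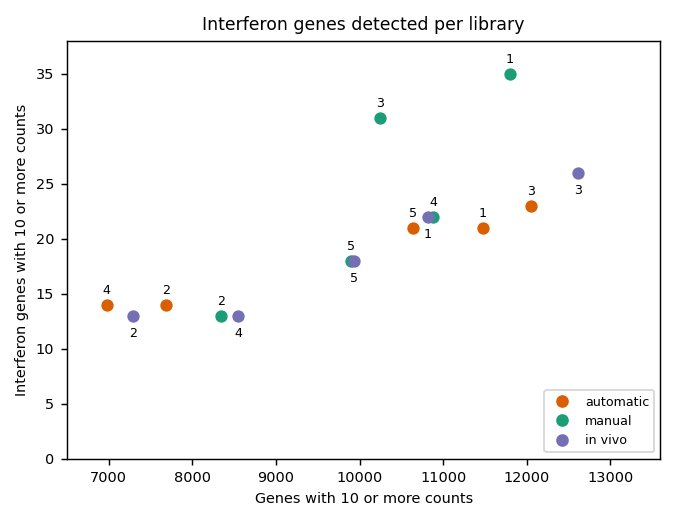
Number of the 37 interferon genes with 10 or more counts (vertical axis) against the number of all genes with 10 or more counts (horizontal axis) in each library, numbered within its group. Manual 1, with 35 interferon genes, and manual 3, with 31, lie above libraries with a like number of detected genes.

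Several transcripts of connective tissue were also high in these libraries, and others were not. The summed level of 13 markers of endometrium and stroma (13 of 13 in the table, none at 0 in every library) was 212, 452, 122, 118 and 169 CPM in the automatic libraries, 637, 206, 621, 118 and 85.6 CPM in the manual libraries, and 125, 79.1, 92.7, 8.92 and 122 CPM in vivo. The 3 libraries with the highest marker sums, manual 1, manual 3 and automatic 2, were also the 3 with the highest effector sums. In automatic 2, however, most of the effector sum of 72.1 CPM was IFI44L (51.7 CPM) and RSAD2 (18.9 CPM). POSTN, a matrix protein of mesenchymal cells, stood at 249 CPM in manual 1, 260 CPM in manual 3 and 80.8 CPM in automatic 2, with at most 14.5 CPM elsewhere, and COL3A1, a fibrillar collagen, at 40.7, 23.1 and 79.3 CPM in the same 3 libraries with at most 0.89 CPM elsewhere; both were picked after their values were seen. COL1A2, another collagen, was highest in manual 3 (90.8 CPM), manual 1 (74.4 CPM) and automatic 2 (66.2 CPM), with 54.3 CPM in manual 2. Of the 13 markers, 8 had their highest level in manual 1, manual 3 or automatic 2. LUM and COL1A1 had another order. LUM, a small proteoglycan, stood at 131 CPM in manual 1, 115 CPM in manual 2, 79.7 CPM in automatic 5 and 76.7 CPM in manual 3 but 7.64 CPM in automatic 2. COL1A1 was highest in automatic 4 (28.9 CPM) and at 0 in manual 3 and automatic 2. PECAM1, a marker of endothelium, made up 201 of the 452 CPM in automatic 2. Among markers of the endometrial epithelium and hormone response, FOXA2 reached at most 0.339 CPM, ESR1 1.91 CPM and PGR 3.84 CPM in any library. MUC1, a mucin of epithelial surfaces, reached 93.3 CPM in manual 3, 45.8 CPM in automatic 4 and 27.6 CPM in manual 1, and PAX8 reached 16.9 CPM in automatic 2. The part of these transcripts in the interferon values was not tested. Of 17 leukocyte markers, 6 stayed below 1 CPM everywhere, among them PTPRC, CD2 and CD5, which had no count in any library. The sum over the 17 was 2.27 to 8.66 CPM over the automatic, 1.08 to 16.1 CPM over the manual and 4.44 to 17.2 CPM over the in vivo libraries. The 3 highest sums were 17.2 CPM in in vivo 1, 16.1 CPM in manual 3 and 15.6 CPM in manual 1, and CORO1A stood at 5.28 CPM in manual 3 and 1.84 CPM in manual 1 with at most 0.0553 CPM elsewhere; the part of leukocyte transcripts was not tested. Cumulus and granulosa markers (12 of 13 in the table, 1 of them at 0 throughout) summed to 284 to 926 CPM, 768 to 1935 CPM and 623 to 2750 CPM in those groups. Nearly all of the highest sums was 1 gene, PTGS2, at 1899 of 1935 CPM in manual 4 and 2732 of 2750 CPM in in vivo 2. STAR reached 179 CPM in in vivo 4, CYP19A1 53.0 CPM in manual 2 and FSHR 42.7 CPM in in vivo 4. The next highest marker, AMHR2, reached 7.50 CPM in in vivo 2, and HAS2 reached at most 1.57 CPM in any library.

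The ligand that the embryo itself makes was found in all groups. The table held interferon tau rows for IFNT and IFNT3 and sparse, untested ones for IFN-TAU and IFN-tau-c1. IFN-TAU had 20 counts, all in automatic 3, and IFN-tau-c1 had 417 counts, with its highest level in manual 4 (8.08 CPM). In RefSeq the name IFNT is a synonym of more than 1 interferon tau gene, so the IFNT row cannot be assigned to a single locus. Reads are likely divided among these near-identical genes. IFNT stood at 17.3, 69.6, 50.5, 4.31 and 1.43 CPM in the automatic libraries, 29.3, 153, 145, 80.0 and 40.4 CPM in the manual libraries, and 10.4, 1.22, 11.8, 1.69 and 74.5 CPM in vivo. IFNT3 stood at 7.59, 55.2, 39.3, 0.442 and 8.24 CPM in the automatic libraries, 22.8, 60.4, 178, 51.1 and 107 CPM in the manual libraries, and 28.6, 0, 8.28, 1.74 and 25.8 CPM in vivo. Manual 3 was high for both, whereas manual 1, the library with the most effectors detected, lay below the other 4 manual libraries for both. The log2 fold change for automatic against manual was -1.65 ± 1.10 for IFNT and -1.92 ± 1.23 for IFNT3, and for manual denudation against in vivo 2.17 ± 1.12 (unadjusted p = 0.0673) and 2.70 ± 1.27 (unadjusted p = 0.0471, adjusted p = 0.9997, edgeR's quasi-likelihood test).

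**Figure D5:**
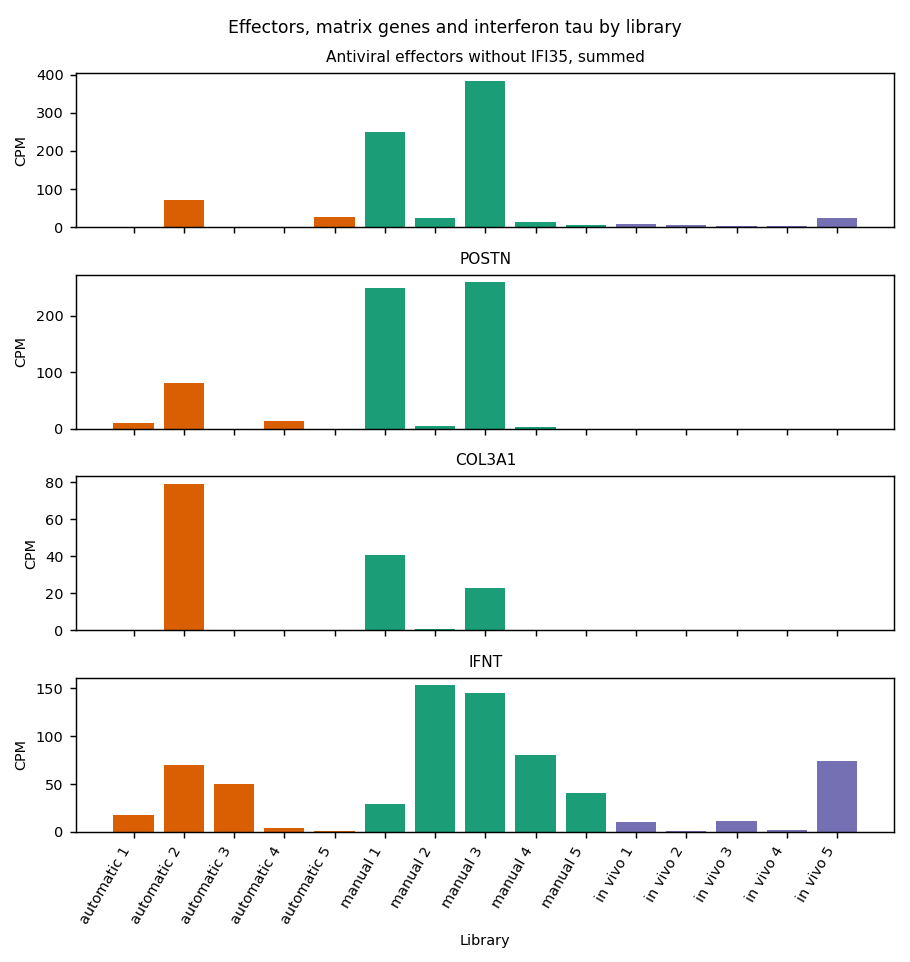
CPM in each library of the summed antiviral effectors without IFI35 (top), of the matrix genes POSTN and COL3A1, and of the interferon tau row IFNT (bottom). Manual 1 and manual 3 stand out in the first panel and for POSTN, automatic 2 is highest for COL3A1, and IFNT is highest in manual 2 and manual 3.

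Beyond the members, 122 further interferon pathway genes were listed, of which 90 were in the table and 63 tested. None was called in any of the 4 comparisons. For automatic against manual denudation 29 had a higher and 34 a lower fitted mean (47.1% of all genes tested were higher). The unadjusted p was under 0.05 for 2 of 63 (background 1.48% of all genes). They were RTP4, an antiviral chaperone (-4.50 ± 1.80), and TLR3, an endosomal RNA sensor (5.48 ± 2.20). TLR3 rests on automatic 4, at 30.7 CPM, since no other library exceeded 2.47 CPM. For in vitro against in vivo 38 were higher and 25 lower (48.2% of all genes were higher). The unadjusted p was under 0.05 for 3 of 63 (background 6.13%), UBA7, CANX and PNPT1, all higher in vitro. UBA7, the enzyme that activates ISG15 for conjugation, stood at 0.813, 0, 0, 0 and 4.95 CPM in the automatic libraries, 8.88, 47.2, 38.7, 4.93 and 0 CPM in the manual libraries, and 0, 0, 0.0614, 0 and 0 CPM in vivo. It was thus present in 4 of 5 manual libraries and 2 of 5 automatic ones, with a total of 3 counts in vivo, all in in vivo 3. Its log2 fold change was 7.97 ± 2.47 (adjusted p = 0.553, edgeR's quasi-likelihood test), a size that depends on the prior count of the fit at so few in vivo counts. CANX, a chaperone of class I molecules, had 0.75 ± 0.28 and PNPT1, a mitochondrial RNA-degrading enzyme, 1.22 ± 0.53 in the same comparison.

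For automatic denudation against in vivo 39 were higher and 24 lower (47.6% of all genes were higher). The unadjusted p was under 0.05 for 5 of 63 (background 5.36%). The 3 smallest were for IFNGR2, a chain of the interferon gamma receptor (5.26 ± 2.0), UBA7 (5.92 ± 2.31) and PNPT1 (1.45 ± 0.59). IFNGR2 rests on automatic 4 (25.7 CPM) and automatic 5 (8.88 CPM), with at most 0.387 CPM in automatic 1 to 3 and 0.389 CPM in vivo. For manual denudation against in vivo 42 were higher and 21 lower (49.4% of all genes were higher). The unadjusted p was under 0.05 for 4 of 63 (background 3.39%). The 3 smallest were for UBA7 (10.02 ± 2.73), CANX (0.77 ± 0.31) and LGALS3BP, a secreted glycoprotein (2.04 ± 0.90). IFNG, the ligand of the gamma pathway, had no count in any library.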

How the data were processed

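Poly(A) libraries of 15 bovine blastocyst samples were prepared with strand marking and with molecular identifiers in the adaptors, per the labels' protocols. The deposited table, made by the authors, holds estimated counts per gene in whole numbers, not scaled. The submitters' processing notes name kallisto, fastp and FastQC, with neither version nor role. The sources used here do not give the transcript set, the genome build or how the identifiers were used. Estimation divides reads among close paralogs (the MX, IFIT, OAS1, IFI44 and IFNT families), so their levels are less certain. Transcript lengths were not used here, so CPM sums over genes, shares of such sums and rankings of genes by CPM are not corrected for length.

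A line without a gene name was left out, and rounding changed 0 values. Libraries of a group differed by far more than sampling noise (smallest chi-square per degree of freedom 183.8). Of 38 members, 37 matched a symbol of RefSeq's ARS-UCD2.0 gene table, used for names and neighbours. Counts were fitted in R 4.3.3 with edgeR 4.0.16 (TMM, filterByExpr, robust estimateDisp and glmQLFit, glmQLFTest) in 1 fit of all 15 libraries with a mean per group and Benjamini-Hochberg adjustment over the 11578 genes kept. In vitro is the mean of the automatic and manual coefficients, and SE is the absolute log2 fold change over the square root of F. The test was tried on simulated counts.

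Members, gene lists, marker lists, tests and settings were chosen with earlier results of these data known. Full values are given for members with an unadjusted p under 0.05 in a comparison, with a highest library of at least 20 CPM and 10 times the median library, or among the 2 of highest mean CPM in a role. Further interferon genes are named up to 3 per comparison where the unadjusted p is under 0.05, with the interferon tau rows and IFNG. Alternatives were library-size and RLE scaling, no filter, a filter of 1 CPM in 5 libraries, DESeq2 1.42.0, limma-voom 3.58.1, a covariate for detected genes, a replicate block, leaving out the 5 low-detection libraries or each library in turn and, after seeing the data, leaving out manual 1 and manual 3.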

Additional observations from a re-analysis of the deposited data

Results flagged for a closer look

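Within groups of 5 libraries, 21 of 68 groups looked at (30.9%) had a lowest or highest library whose gap to the next exceeded 0.71 of the group's range; chance alone marks about 1 in 20 groups of normally distributed values, which CPM with many zeros are not. Over all genes with 10 or more counts in a library of the group, 26.6% of the groups exceeded the same limit, a share near that of the genes looked at here. The marked values are levels in CPM, and no explanation was tested.

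Among effectors after automatic denudation, the libraries that stood apart were automatic 5 for MX1 (11.0 CPM) and IFIT5 (7.13 CPM), automatic 2 for IFI44L (51.7 CPM) and RSAD2 (18.9 CPM), and automatic 1 for IFI6 (0.563 CPM, against 0.0807 CPM in the next). Automatic 2 also stood apart for USP18 (34.4 CPM) and PSMB8 (33.4 CPM).

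Among manual libraries, manual 3 stood apart for IFI44 (34.1 CPM) and PSMB8 (12.8 CPM), manual 1 for IFI44L (8.88 CPM), and manual 2 for USP18 (59.7 CPM, the highest) and IRF7 (9.28 CPM, the lowest).

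In vivo, single libraries stood apart for MX1 (in vivo 1, 6.03 CPM), IFIT5 (in vivo 1, 3.19 CPM), OAS1Y (in vivo 2, 2.53 CPM), IFI44 (in vivo 4, 1.42 CPM), RIGI (in vivo 4, 80.0 CPM), IFIT1 (in vivo 5, 21.7 CPM) and the ligand IFNT (in vivo 5, 74.5 CPM). In vivo 2 stood apart for JAK1 (172 CPM) and B2M (3792 CPM); its TMM factor, 0.543, was the lowest of the 15, which raises its CPM relative to scaling by the library total.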

How the results depend on the processing

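The count of members called was 0 in all 4 comparisons under every setting run, except that DESeq2 called 1 member, IFI6, for automatic against manual denudation. Over all genes, DESeq2 called 9 (automatic against manual), 86 (in vitro against in vivo), 87 (automatic against in vivo) and 44 (manual against in vivo), against 0, 2, 2 and 0 by edgeR. In the same order the calls numbered 0, 15, 9 and 1 by limma-voom, 0, 7, 3 and 0 with the covariate, 0, 8, 7 and 1 with the replicate block, 1, 7, 9 and 3 without the low-detection libraries, 0, 3, 1 and 0 without the filter, 0, 2, 3 and 0 without manual 1 and manual 3, and 0 in each with library-size scaling; without 1 library they were 0 to 7 for in vitro and 0 to 4 for automatic against in vivo. Without the filter on low counts, 37 members were tested and the smallest member adjusted p by edgeR was 0.317. Members with an unadjusted p under 0.05 were then 7, 3, 4 and 8 of 37 in those comparisons. Over all genes it was 1026, 1612, 1472 and 1311 of 15005. The 7 members for automatic against manual were IFI6, ISG15, IFIT1, IFI44, OAS1Y, TRIM25 and OAS2. OAS2 was higher after automatic denudation and the others were lower. TRIM25 rested on 43 counts in manual 1 and OAS2 on 17 counts in automatic 3, so a single library gave such a p-value. Scaling by library size moved the median of all genes for in vitro against in vivo to 0.10, against -0.04 with TMM.

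Of 35 log2 fold changes of 16 members, 19 kept their sign under every setting and 16 did not. Signs turned without the low-detection libraries for JAK1 (0.33), IRF3 (-0.69), RIGI (2.37), PARP12 (0.15) and TAP1 (0.67) in vitro against in vivo, and for IRF7 (-0.21) and PSMB8 (-1.31) automatic against manual. They turned under limma-voom for RIGI (1.39) in vitro against in vivo and for TYK2 (-0.19) and PARP9 (1.95) automatic against manual, under library-size scaling for TAP1 (0.32) in vitro against in vivo, and without manual 1 and manual 3 for MX1 (0.61) automatic against manual; the cause was not tested. Leaving out 1 library turned signs for automatic against manual of TYK2 (-0.27 to 0.85), IRF3 (-0.14 to 0.36), IRF7 (-0.16 to 0.52), USP18 (-2.36 to 0.44), PSMB8 (-1.45 to 3.21) and B2M (-0.50 to 0.16). For in vitro against in vivo it turned them for JAK1 (-0.87 to 0.21), IRF3 (-0.086 to 0.68), RIGI (-1.24 to 2.23), MX1 (-1.69 to 3.76), IFI35 (-0.54 to 0.31), TAP1 (-0.43 to 0.61) and B2M (-1.06 to 0.36).

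The replicate numbers did not meet the rule for pairing, a correlation over 0.1 in every pair: deviations of same-numbered libraries correlated at 0.00137 to 0.380, with 8 of 15 pairs over 0.1, among them all 3 pairs of replicate 1 and of replicate 3. With the number as a block 0 members were called in each comparison, and signs turned for RIGI (0.98) and IFI35 (0.10) in vitro against in vivo and PARP9 (1.99) automatic against manual.

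The 8 members whose 2 highest libraries were manual 1 and manual 3 numbered 8 under library-size scaling and under RLE scaling, 10 without the low-detection libraries and 7 of 32 with at least 100 counts in a library. Depth and spread limit the rest: with 5 libraries a group and a median coefficient of variation of 1.61, absence of a call does not show that members were alike.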

Other observations

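A wider set of genes shared the pattern of the effectors. Over all 105 pairs of libraries, the number of genes that stood at 1 CPM or more in both libraries of a pair, each at least 3-fold above the highest of the other 13, had a median of 4. The pair manual 1 and manual 3 had 29 such genes of 14330 (0.202%), and the next pair, automatic 3 and manual 1, had 19. Of the 29, 4 were members (IFIT1, ISG15, MX1 and OAS1Y) and 1 was a further interferon gene, ZBP1, a sensor of viral nucleic acid, at 4.27 CPM in manual 1, 5.31 CPM in manual 3 and no count elsewhere.

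The other 24 were on neither interferon list and were not tested for any shared theme. They include the leukocyte marker CORO1A and genes such as GRIA3, a glutamate receptor subunit, CNR1, a cannabinoid receptor, and PYGL, a glycogen phosphorylase. CTSK, a collagen-degrading protease, stood at 46.9 CPM in manual 1 and 59.3 CPM in manual 3, with 12.9 CPM in the next library. PLAT, a plasminogen activator, stood at 42.5 and 106 CPM, and THBS1, a matrix glycoprotein, at 46.0 and 37.1 CPM, in the same libraries, with at most 5.39 and 4.37 CPM elsewhere. ZEB2, a factor of mesenchymal cells, and AXL, a receptor kinase that restrains interferon responses in mouse myeloid cells, had no count in the other 13 libraries. These genes were found by their values and no test goes with them.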
